A study of Mus musculus with 20 samples.

Results

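The 39 Hox genes of the mouse were examined in the livers and kidneys of mice given a cocktail of 7 small molecules (7c) or its vehicle. Members were the protein-coding genes of the deposited count table whose symbol is Hox, a cluster letter A to D and a number, which gave 39 of 57010 genes, taken with no filter on expression. The A cluster held 11 of them, the B cluster 10, the C cluster 9 and the D cluster 9. The mice were 12-month-old males of the genetically heterogeneous UM-HET3 cross. Osmotic minipumps under the skin delivered the compounds or the vehicle, a mixture of DMSO and PEG300, for 28 days. The 7c cocktail held repsox, tranylcypromine, DZNep, TTNPB, CHIR99021 and forskolin at 0.1 mg/kg/day each and valproate at 1 mg/kg/day. Each tissue gave 4 vehicle and 6 7c libraries of polyadenylated RNA, 20 in all, and all groups shared the pump and the vehicle. RNA came from a small frozen piece of each organ, and which region was taken is not given in the sources used here. Such pieces are mixtures of cells, so fewer cells of a type and less RNA per cell cannot be told apart in these data.

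Hox genes encode homeodomain transcription factors and lie in 4 clusters. Their order along each cluster matches the order in which they are used from head to tail in the embryo: low-numbered genes at the 3′ end are used in front, and high-numbered genes at the 5′ end behind. Adult cells of mesodermal organs keep much of this pattern, which is why Hox expression is read as a record of where a tissue came from. Polycomb complexes hold unused Hox genes silent through methylation of histone H3, trithorax-type complexes with MLL proteins hold used ones active, and retinoic acid activates 3′ genes. Several compounds of the cocktail act on these systems: TTNPB activates retinoic acid receptors, DZNep lowers the Polycomb methyltransferase EZH2, and valproate and tranylcypromine inhibit histone deacetylases and the demethylase LSD1. The comparisons below address how Hox levels differ between the organs and whether 7c mice differ from vehicle mice.

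Promoters are shown for the member with the highest level in kidney (Hoxd8), the member with the highest level in liver (Hoxb4), and the last detected gene of the D cluster (Hoxd11) with the 2 undetected genes beyond it (Hoxd12 and Hoxd13). Each is a RefSeq window of 300 bases on GRCm38.p6, from 250 bases before the start to 50 after it, on the + strand, with every CG dinucleotide in capitals. They lie at chr2:74704365-74704664, chr11:96318017-96318316, chr2:74682073-74682372, chr2:74674763-74675062 and chr2:74667975-74668274.
Hoxd8: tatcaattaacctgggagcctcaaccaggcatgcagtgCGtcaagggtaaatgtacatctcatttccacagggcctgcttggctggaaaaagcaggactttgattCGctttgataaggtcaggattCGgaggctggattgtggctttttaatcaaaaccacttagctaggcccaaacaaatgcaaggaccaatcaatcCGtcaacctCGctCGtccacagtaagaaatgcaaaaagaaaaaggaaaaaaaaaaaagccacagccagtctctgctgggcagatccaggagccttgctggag
Hoxb4: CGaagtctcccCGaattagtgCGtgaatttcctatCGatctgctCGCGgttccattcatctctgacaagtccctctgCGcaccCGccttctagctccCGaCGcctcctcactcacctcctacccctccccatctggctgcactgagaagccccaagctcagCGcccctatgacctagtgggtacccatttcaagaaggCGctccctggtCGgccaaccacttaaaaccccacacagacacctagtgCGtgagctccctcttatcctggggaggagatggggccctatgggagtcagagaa
Hoxd11: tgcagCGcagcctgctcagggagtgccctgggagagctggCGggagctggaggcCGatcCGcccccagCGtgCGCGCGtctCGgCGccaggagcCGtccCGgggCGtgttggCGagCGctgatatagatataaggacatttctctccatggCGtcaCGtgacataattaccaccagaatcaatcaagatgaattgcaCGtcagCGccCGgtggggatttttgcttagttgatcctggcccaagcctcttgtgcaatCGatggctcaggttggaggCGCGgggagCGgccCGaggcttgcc
Hoxd12: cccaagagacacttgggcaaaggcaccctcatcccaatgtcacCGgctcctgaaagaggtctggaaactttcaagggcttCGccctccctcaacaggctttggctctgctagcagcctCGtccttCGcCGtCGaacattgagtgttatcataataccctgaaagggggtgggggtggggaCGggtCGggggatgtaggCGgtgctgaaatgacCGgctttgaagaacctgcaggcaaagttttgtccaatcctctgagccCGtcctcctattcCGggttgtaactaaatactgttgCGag
Hoxd13: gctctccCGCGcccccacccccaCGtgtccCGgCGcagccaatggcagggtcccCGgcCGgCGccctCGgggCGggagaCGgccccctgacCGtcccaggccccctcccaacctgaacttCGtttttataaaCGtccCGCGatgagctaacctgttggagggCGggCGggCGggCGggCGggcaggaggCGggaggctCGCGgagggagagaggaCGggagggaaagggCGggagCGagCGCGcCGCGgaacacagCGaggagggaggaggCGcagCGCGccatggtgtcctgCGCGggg

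The windows held 6 CG dinucleotides at Hoxd8, 14 at Hoxb4, 25 at Hoxd11, 13 at Hoxd12 and 37 at Hoxd13. RefSeq gives Hoxd11 a second window, not printed, at chr2:74679308-74679607, which held 4, so no order by expression can be read from these windows. RefSeq windows were found for 22 of the 39 members, with a median of 17.5 CG dinucleotides (range 4 to 45). Over all 27025 genes of the same table the median was 8 and the upper quartile 22. The motif TATAAA, searched on both strands, was in the windows of 4 members (18.2%) and of 15.7% of all genes.

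The clusters also hold microRNA genes whose targets include Hox transcripts, and their sequences are shown because their seeds are matched to the members below. In the mature RefSeq sequences the seed, bases 2 to 8, is in capitals. The miR-196 pair shares one seed and the miR-10 pair another.
miR-196a-5p: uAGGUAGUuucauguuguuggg
miR-196b-5p: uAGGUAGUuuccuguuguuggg
miR-10a-5p: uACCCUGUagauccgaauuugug
miR-10b-5p: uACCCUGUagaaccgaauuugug

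The closest match to the complement of miR-196a-5p in any member's 3′ untranslated region was in Hoxb8, on the + strand at chr11:96175714-96175735 of GRCm39, with the bases opposite the seed in capitals.
Hoxb8 site: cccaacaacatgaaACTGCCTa

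Of its 22 bases, 21 were complementary, and the 1 other, opposite the seed, could form a G:U pair. The exact seed match ACTACCT, read on the transcript strand, was in the 3′ untranslated regions of 8 of 39 members (20.5%) and of 6.71% of 20854 genes with such a region. These 8 were Hoxa4, Hoxa5, Hoxa7, Hoxa9, Hoxb1, Hoxb6, Hoxb7 and Hoxc8. The miR-10 match ACAGGGT was in 4 members (10.3%), among them Hoxa3, Hoxb3 and Hoxd1, and in 14.3% of all genes. The miR-196a gene of the B cluster, Mir196a-1, had 17 to 64 counts in each kidney and 0 in every liver. The others were at or near 0: Mir10a had 0 to 8 counts in the kidneys and 0 to 1 in the livers, Mir196a-2 had 0 to 1 and 0, and Mir10b and Mir196b had 0 in every library. Such counts come from polyadenylated RNA that covers the hairpin, and mature microRNAs were not measured. Mir196b shares its bases on the same strand with an exon of Hoxa9. How reads over overlapping genes were counted is not given in the sources used here, so its 0 counts are uncertain.

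Library totals ran from 28383359 to 34153084 counts in liver and from 27855849 to 64872451 in kidney, where 7c kidney 1 was the deepest and the next held 40610948. The organ labels held: the kidney genes Umod and Slc34a1 had 0 counts in all 10 livers, with Umod at 1341 to 1939 CPM (counts-per-million, a gene's counts scaled to library size) in kidney. Alb, the albumin gene of hepatocytes, lay at 7.00 to 35.0 CPM in kidney and 62699 to 97694 CPM in liver. Levels are given in CPM scaled by TMM factors over all 20 libraries. The kidneys of vehicle mouse 2 and 7c mouse 5 stood apart from the other 8, which was noticed after the values were seen. Both lay below all 8 others for 15% of 17749 genes and above them for 15.8%. Among the members both lay below for 8 (Hoxa3, Hoxa4, Hoxa6, Hoxa7, Hoxa9, Hoxc6, Hoxc11 and Hoxd3) and above for 2 (Hoxa2 and Hoxb7).

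The kidney expressed Hox genes up to paralog group 11 in each cluster that has one and stopped there. Of the 39 members, 28 had at least 10 counts in every kidney. The 10 kidneys together held 185087 counts of Hox transcripts: 4881 from groups 1 to 3, 114646 from groups 4 to 8, 65546 from groups 9 to 11 and 14 from groups 12 and 13. Those 14 counts were 6 of Hoxa13 in 7c kidney 1 and 4 of Hoxc12 in each of 7c kidneys 1 and 6. Hoxb13, Hoxc13, Hoxd12 and Hoxd13, the genes of the tail and the outermost limb and urogenital tract, had 0 counts in all 20 libraries. For the 10 kidneys together 0 counts allow a level of up to 0.00618 CPM, and for the 10 livers up to 0.0120 CPM, by a floor of 3 counts that treats each count as independent.

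**Figure D1:**
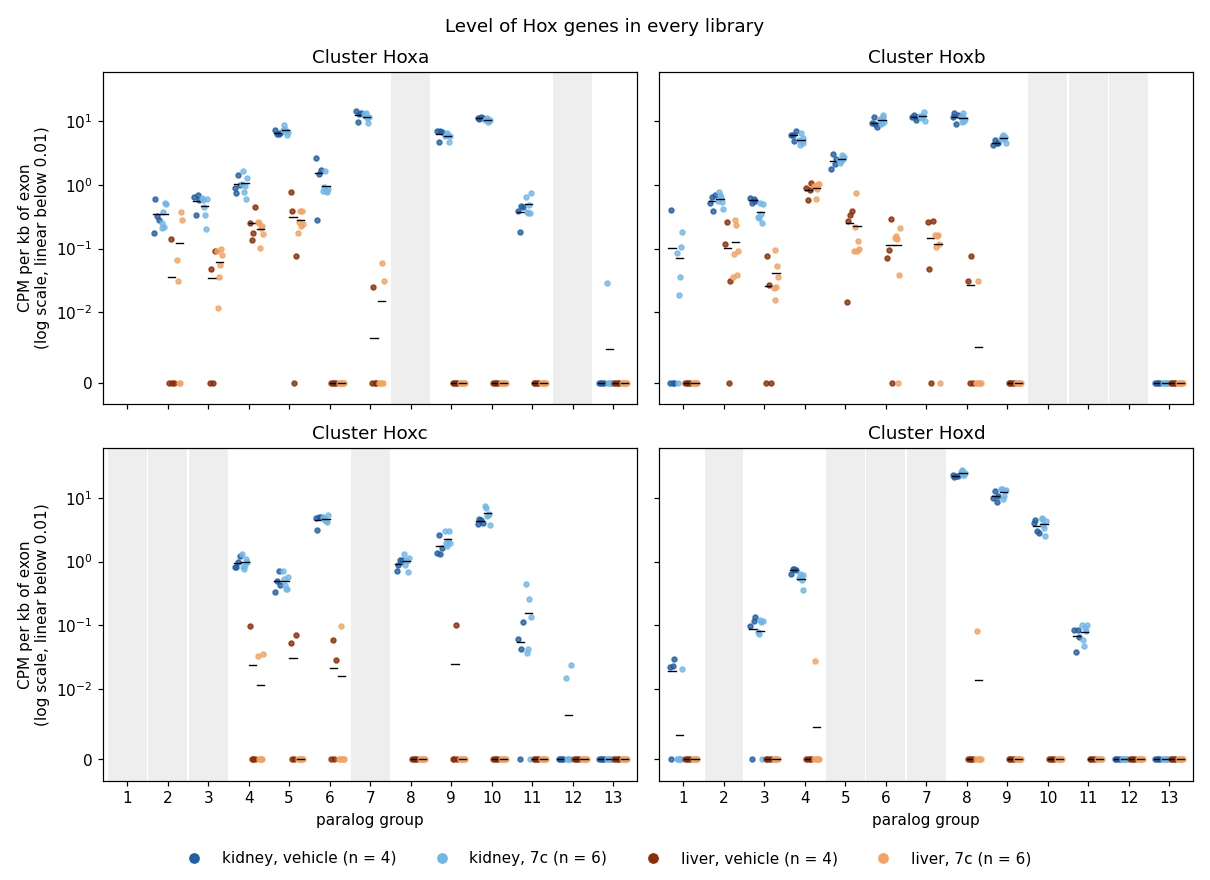
Level of Hox genes in CPM per kb of exon (log axis, linear below 0.01) against paralog group, with 1 panel per cluster. Points are single libraries of vehicle and 7c kidney and liver, short lines are group means, and grey marks groups that the cluster lacks. Kidney levels reach from group 1 to group 11 and end there, with 14 counts in all from groups 12 and 13.

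The end of expression fell between neighbours that lie close together in one cluster and far apart in another. Hoxd11 and Hoxd12 are separated by 1.85 kb, Hoxa11 and Hoxa13 by 11.8 kb, Hoxc11 and Hoxc12 by 13.6 kb, and Hoxb9 and Hoxb13 by 73.9 kb of GRCm39. Group 11, whose proteins direct branching of the kidney in the embryo with Eya1 and Pax2, was detected at low levels. Hoxa11 had 0.914, 0.425, 1.08 and 1.06 CPM in vehicle kidneys 1 to 4 and 0.832 to 1.75 CPM (median 0.996) in 7c kidneys. Hoxd11 had 0.499, 0.224, 0.488 and 0.390 CPM in vehicle kidneys and 0.277 to 0.591 CPM (median 0.50) in 7c kidneys. The vehicle and 7c values of both genes overlapped, and vehicle kidney 2 was the lowest library of each. Hoxa11 shares 43.6% of its exon length with the antisense gene Hoxa11os, which lay at 0.111 to 0.629 CPM in the kidneys. The strand setting of the counting was not given, so reads of these genes may be mixed. Hoxc11 had 0.125, 0, 0.0849 and 0.223 CPM in vehicle kidneys and 0 to 0.903 CPM (median 0.176) in 7c kidneys, the highest being 7c kidney 1 with 74 counts.

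The highest Hox levels in kidney came from groups 7 to 10, genes of the trunk. Hoxd8 (ENSMUSG00000027102, GRCm39 chr2:74534959-74538297, + strand) led with 67.1, 61.8, 64.8 and 65.4 CPM in vehicle kidneys and 67.2 to 80.5 CPM (median 74.2) in 7c kidneys. Hoxa10, needed for the lumbar spine and the reproductive tract, had 37.6, 35.9, 38.2 and 36.7 CPM in vehicle kidneys and 32.4 to 37.7 CPM (median 35.0) in 7c kidneys. Neither gene varied much among vehicle kidneys, the SD being 2.18 CPM around 64.8 for Hoxd8 and 0.993 CPM around 37.1 for Hoxa10. Hoxa7 had 42.1, 27.8, 37.0 and 38.7 CPM in vehicle kidneys and 27.2 to 38.5 CPM (median 34.5) in 7c kidneys. Hoxa9, its 5′ neighbour, had 39.1, 26.3, 38.8 and 37.5 CPM in vehicle kidneys and 26.1 to 36.2 CPM (median 33.4) in 7c kidneys. The lowest values of both genes in both groups were those of vehicle kidney 2 and 7c kidney 5. Hoxb8 had 31.5, 35.6, 23.9 and 33.1 CPM in vehicle kidneys and 26.4 to 36.1 CPM (median 30.2) in 7c kidneys. Hoxd9 had 21.8, 28.1, 19.3 and 23.5 CPM in vehicle kidneys and 21.4 to 30.8 CPM (median 28.5) in 7c kidneys. For Hoxb8 and Hoxd9 the groups overlapped.

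Per kilobase of exon, the scale on which different genes can be set side by side, Hoxd8 was again first in vehicle kidney at 22.0 ± 0.741 CPM per kb (SD, n = 4). Hoxa7 followed at 12.6 ± 2.12, Hoxb8 at 11.7 ± 1.90, Hoxb7 at 11.6 ± 0.857, Hoxa10 at 11.2 ± 0.301 and Hoxd9 at 10.5 ± 1.68 CPM per kb. The levels of these 5 genes lay within their spreads of each other, while every Hoxd8 value lay above theirs. Summed over the members, vehicle kidney held 371 ± 10.1 CPM and 7c kidney 384 ± 18.6 CPM. By cluster, vehicle kidney held 131 ± 15.2 CPM from A, 111 ± 12.2 from B, 31.9 ± 2.06 from C and 97.7 ± 3.27 from D.

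The liver held few Hox transcripts, and 1 gene gave the largest share of their counts. The 10 livers together had 1499 Hox counts, of which Hoxb4 gave 563 (37.6%), whereas in kidney it gave 3.68%. In 20 of the 39 members every liver had 0 counts. Only Hoxa4, Hoxb4 and Hoxb5 had counts in every liver, and of these only Hoxb4 reached 10 in each. Groups 1 to 3 gave 356 of the counts, groups 4 to 8 gave 1135 and groups 9 to 11 gave 8, all of Hoxc9 in vehicle liver 3. The liver labelled 7c 6 stood apart in skeletal muscle genes, with Acta1 at 280 CPM against 0 to 0.0907 CPM in the other livers, while its summed Hox level of 6.25 CPM lay within the 5.09 to 6.77 CPM of the 7c livers. The D cluster, whose Hoxd8 led in kidney, had 0 counts in vehicle liver and 8 in 7c liver, all in 7c liver 2.

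Hoxb4 (ENSMUSG00000038692, GRCm39 chr11:96209093-96212464, + strand), known for its part in blood stem cells, had 56, 41, 62 and 77 counts in vehicle livers and 38 to 61 counts in 7c livers. In CPM these were 2.28, 1.49, 2.14 and 2.73 in vehicle and 1.54 to 2.63 (median 2.49) with 7c. The treatments overlapped in full. Hoxb5 had 0.0408, 0.765, 0.931 and 1.10 CPM in vehicle livers and 0.252 to 2.07 CPM (median 0.317) in 7c livers. Hoxa5 had 1.47, 0.729, 0 and 0.142 CPM in vehicle livers and 0.336 to 0.730 CPM (median 0.469) in 7c livers. Single livers thus differed more than the groups for both genes, at 0 to 51 counts per library.

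**Figure D2:**
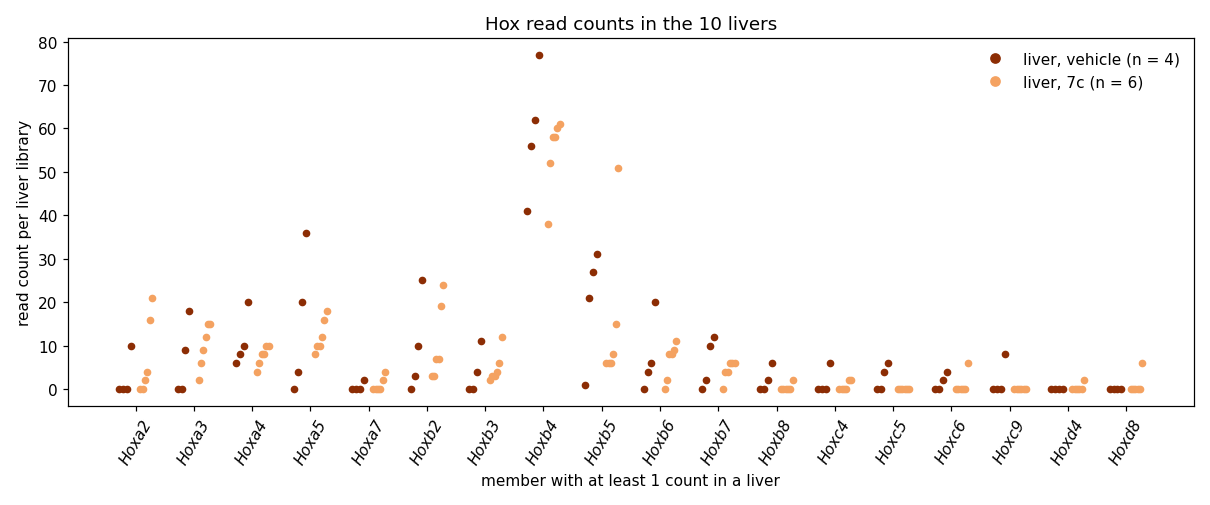
Read counts in each of the 10 livers, 4 vehicle and 6 7c, for Hox genes with at least 1 count in a liver. Hoxb4 is the only one with at least 10 counts in every liver, at 38 to 77.

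All but 1 of the Hox genes that could be tested in each treatment were called higher in kidney than in liver. In vehicle mice 30 members passed the filter, 10 or more counts in 50% or more of the libraries of either organ, and 29 were higher in kidney by edgeR's quasi-likelihood test at an adjusted p of 0.05, against 28% of all 19025 genes tested. None was higher in liver, against 24.2% of all genes. In 7c mice 31 of 32 members were higher in kidney, against 33.8% of 19028 genes, and 0 in liver, against 30.4%. Since a member absent from liver could pass the filter only through kidney, the counts describe the members that passed and not all 39. The member that did not pass in 7c mice was Hoxa2, with a log2 difference of 1.47 (SE 0.784, adjusted p = 0.112). Hoxa2 passed the test without 7c replicate 5, at 2.11 (adjusted p = 0.0469), and with the replicate number as a block, at 2.25 (adjusted p = 0.0299). It also passed with raw library totals, at 2.16 (adjusted p = 0.0210), and with limma-voom, at 2.65 (adjusted p = 0.00694).

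The kidney to liver ratio varied widely among the members, and neighbouring groups overlapped: Hoxa4 and Hoxb4 had lower ratios than Hoxa3 and Hoxb3. Where a liver group had no count, the ratio is a bound against 3 counts over the group, which was so for 13 of 30 members in vehicle mice and 15 of 32 in 7c mice. With those at their bound, the median over the members tested was at least 57.6-fold in vehicle mice, 12.7-fold in groups 1 to 3, at least 78.6-fold in groups 4 to 8 and at least 320-fold in groups 9 to 11. In 7c mice the medians were at least 83.6-fold, 8.13-fold, at least 91.9-fold and at least 458-fold. Members with no liver count passed the filter only through kidney, so these medians are a description. The ratio of summed Hox levels was 62.0 in vehicle and 64.0 in 7c mice, and 94.0 and 101 with raw library totals in place of TMM. Bounds and intervals treat each count as independent, and most low counts were even, so if 1 fragment gave 2 counts the bounds would be lower by up to 2 times and the intervals wider.

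Single genes show the range. Hoxd8 was at least 2358-fold higher in vehicle kidney than in vehicle liver, Hoxa10 at least 1351-fold, Hoxa9 at least 1290-fold and Hoxd9 at least 839-fold. Group 11 had lower bounds, at least 31.4-fold for Hoxa11, 14.7-fold for Hoxd11 and 3.72-fold for Hoxc11. These bounds follow the kidney level, since the liver count was 0 for each. Hoxb4, the leading Hox gene of the liver, had a ratio of 7.10 in vehicle mice (95% counting interval 6.21 to 8.15) and of 5.70 in 7c mice (5.09 to 6.40). Its fitted log2 difference was 2.85 (SE 0.234, adjusted p = 1.33e-06) and 2.49 (SE 0.170, adjusted p = 3.08e-09). Hoxb5 differed by 3.21 (SE 0.572, adjusted p = 0.000652) and Hoxa5 by 4.45 (SE 0.737, adjusted p = 0.000387) in vehicle mice. Without vehicle replicate 1 the Hoxa5 difference was 5.38, and with limma-voom it was 5.80.

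**Figure D3:**
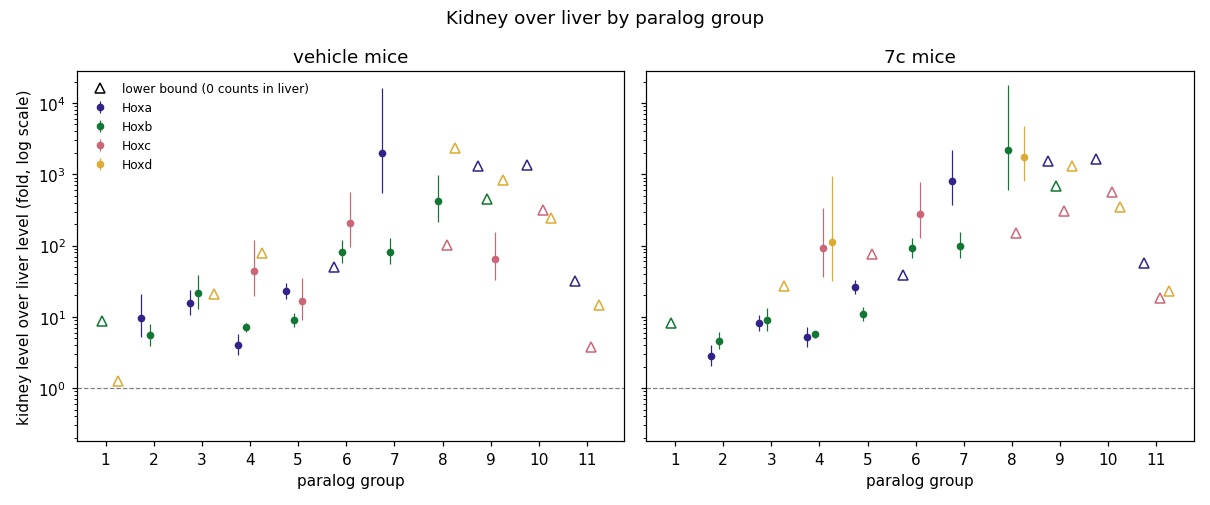
Kidney to liver ratio of Hox genes of groups 1 to 11 on a log axis against paralog group, in vehicle and 7c mice, with 95% counting intervals and with triangles for lower bounds of genes that had no liver count. Median ratios in vehicle mice go from 12.7 in groups 1 to 3 to at least 320 in groups 9 to 11, and the bounds of group 11 lie below those of groups 9 and 10.

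No Hox gene passed the test between 7c and vehicle in kidney. Of 30 members tested edgeR's quasi-likelihood test called 0, against 0% of 17749 genes higher and 0% lower with 7c. DESeq2, limma-voom and edgeR's likelihood ratio test also called 0 members. Over all settings run, 0 to 18 of all genes tested were called in kidney, so 0 members lies near the share of all genes. At an unadjusted p under 0.05 there were 2 (6.67%), Hoxb3 and Hoxc10, against 463 of all genes tested (2.61%). The median log2 difference of the members was 0.04, beside -0.01 for all genes, and 18 were positive and 12 negative. The 95% interval of the difference lay within -1 to 1 for 24 of the 30 members and within -0.5 to 0.5 for 11.

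Hoxb3 (ENSMUSG00000048763, GRCm39 chr11:96214152-96238756, + strand), a gene of the hindbrain and pharyngeal region, had 3.22, 2.66, 3.10 and 2.84 CPM in vehicle kidneys and 1.28 to 2.65 CPM (median 1.71) in 7c kidneys. All 6 7c kidneys lay below all vehicle kidneys, with a log2 difference of -0.63 (SE 0.238, interval -1.15 to -0.12, adjusted p = 0.997). Hoxb3 shares 51.5% of its exon length with the antisense gene Hoxb3os, and since the strand setting of the counting was not given, reads of the pair may be mixed. Hoxd4 (ENSMUSG00000101174, GRCm39 chr2:74542273-74559523, + strand), a retinoic acid target, had 1.91, 2.30, 2.27 and 2.17 CPM in vehicle kidneys and 1.05 to 1.88 CPM (median 1.68) in 7c kidneys. It too was lower in 6 of 6, by a log2 difference of -0.44 (SE 0.210, interval -0.90 to 0.01, adjusted p = 0.997). Hoxd4 shares exon sequence on the same strand with Hoxd3 and Gm28230 (52.0% of its length for the pair together), so its counts are uncertain. Hoxd8 was higher in 6 of 6 7c kidneys, with a log2 difference of 0.17 (SE 0.0938). Hoxc10 (ENSMUSG00000022484, GRCm39 chr15:102875134-102880330, + strand) had 8.10, 9.49, 9.25 and 8.32 CPM in vehicle kidneys and 7.59 to 15.5 CPM (median 11.2) in 7c kidneys. Of the 7c kidneys 5 lay above the vehicle range and 1 below it, with a log2 difference of 0.41 (SE 0.180).

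The 7c and vehicle kidneys did not overlap for 1 of 30 members with 7c higher (Hoxd8), against 0.349% of 17749 genes. With 7c lower this was so for 2 members (Hoxb3 and Hoxd4), against 0.366%. Groups 1 to 3 made up 2.79 to 3.13% of Hox CPM in vehicle kidneys (median 3.01%) and 1.79 to 3.00% in 7c kidneys (median 2.45%). These shares overlapped. Without the kidneys of vehicle 2 and 7c 5 the test still called 0 members, with 5 (16.7%) at an unadjusted p under 0.05 (Hoxa6, Hoxa9, Hoxb3, Hoxc9 and Hoxd9), against 1530 of 17874 genes (8.56%). Adipocyte markers, summed over 8 genes, lay at 32.0 to 43.3 CPM in vehicle kidneys and 50.5 to 131 CPM in 7c kidneys. All 8 had an unadjusted p under 0.05 and 0 were called, and their part in the Hox values was not tested.

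**Figure D4:**
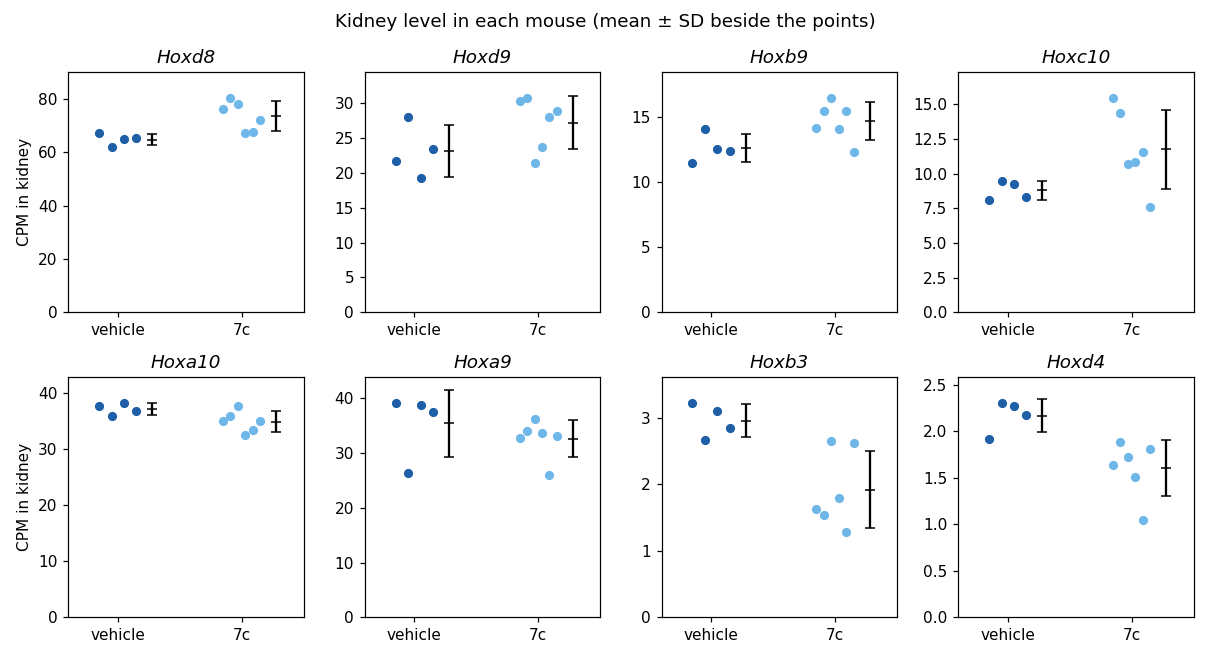
Level in CPM of 8 Hox genes in each of the 10 kidneys, 4 vehicle and 6 7c, with the group mean and SD beside the points. All 7c points lie above the vehicle points for Hoxd8 and below them for Hoxb3 and Hoxd4, and Hoxa9 has 1 low kidney in each group.

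**Figure D5:**
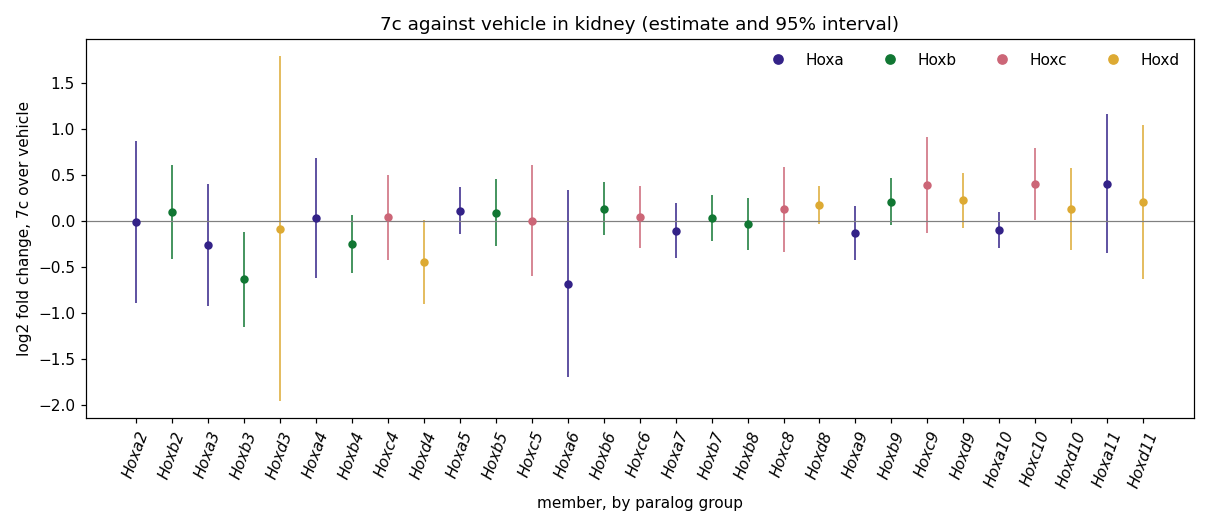
Log2 difference between 7c and vehicle kidney for 29 of the 30 Hox genes tested, with its 95% interval, ordered by paralog group and coloured by cluster. Most intervals span 0, and 0 genes passed an adjusted p of 0.05.

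In liver 3 members could be tested between 7c and vehicle, and edgeR called 0, against 0% of 15012 genes higher and 0.00666% lower. None of the 3 had an unadjusted p under 0.05, against 3.76% of all genes, and the other tools called none of them. Over all settings run, 0 to 7 of all genes tested were called in liver. The log2 difference was 0.08 for Hoxb4 (SE 0.286, interval -0.54 to 0.69), -0.17 for Hoxb5 (SE 0.797, interval -1.89 to 1.55) and -0.15 for Hoxa5 (SE 0.820, interval -1.91 to 1.62). The sign for Hoxa5 turned without vehicle replicate 1 (0.86), with the replicate block (0.52) and with limma-voom (1.21), and that for Hoxb4 without vehicle replicate 2 (-0.070) and with the block (-0.0039). Hoxb5 turned with the block (0.12), so no direction is given for these members. The test of whether the 7c difference itself differed between organs also had 3 members, of which 0 were called, against 0% of 14163 genes with the larger difference in kidney and 0.00706% in liver. None of the 3 had an unadjusted p under 0.05, against 2.49% of all genes, and the other tools called none of them. Over all settings run, 0 to 22 of all genes tested were called. The interaction was -0.32 for Hoxb4 (SE 0.257), 0.27 for Hoxb5 (SE 0.731) and 0.25 for Hoxa5 (SE 0.654). The value for Hoxa5 turned to -0.69, -0.10 and -1.08 under the same 3 alternatives.

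Textbook retinoic acid targets are of interest because TTNPB is a retinoid receptor agonist. Hoxb4 had 15.6, 15.8, 12.7 and 18.0 CPM in vehicle kidneys and 10.97 to 16.8 CPM (median 12.8) in 7c kidneys, a difference of -0.25 (SE 0.145). The groups overlapped. Hoxb1 had 0, 0.940, 0 and 0 CPM in vehicle kidneys and 0 to 0.419 CPM (median 0.140) in 7c kidneys, and it did not pass the filter. Hoxd4, described above, was lower in 6 of 6 7c kidneys without passing the test.

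Genes that work with Hox proteins or on Hox chromatin were counted in the same comparisons, where 28% of all genes were higher in kidney and 24.2% in liver in vehicle mice. Between 7c and vehicle edgeR called 0 genes of these lists in either organ. At an unadjusted p under 0.05 there was 1, the retinoid response gene Cyp26a1 in liver, against 3.76% of all genes tested in liver and 2.61% in kidney. Cyp26a1 was lower with 7c, at 19.9 to 30.3 CPM against 28.9 to 39.7 CPM in vehicle livers. TALE homeodomain proteins bind DNA with Hox proteins, and 7 of 9 were higher in kidney in vehicle mice and 0 in liver. Meis2 stood at 11.1 ± 1.35 CPM in kidney and 7.36 ± 1.22 CPM in liver (log2 difference 0.59, SE 0.191, adjusted p = 0.0220), and Pbx3 differed by 1.43 (SE 0.267, adjusted p = 0.000935). Of 8 genes of kidney development listed beside group 11, 4 were tested and all 4 were higher in kidney. Only 1 of the 8 passed the filter within liver, so the others entered the test through kidney and this count is a description. Pax8 stood at 63.3 ± 5.51 and 0.152 ± 0.103 CPM, and Pax2 at 27.4 ± 4.30 CPM in kidney with 0 counts in every liver. Eya1 stood at 0.122 ± 0.0733 CPM in vehicle kidney, and Six2 had 0 counts in all 10 kidneys.

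Of 11 genes of the Polycomb complex PRC2, 3 were higher in kidney and 3 in liver in vehicle mice. Ezh1, the methyltransferase of resting cells, was higher in kidney at 69.0 ± 1.82 against 26.1 ± 3.62 CPM. Ezh2, that of dividing cells and the one DZNep lowers, was higher in liver at 8.19 ± 0.996 against 4.62 ± 0.442 CPM (log2 difference -0.82, SE 0.201, adjusted p = 0.00534). Between 7c and vehicle the Ezh2 transcript differed by -0.11 in kidney (SE 0.163) and -0.10 in liver (SE 0.161). EZH2 protein was not measured here. In PRC1, 5 of 12 genes were higher in kidney and 2 in liver, and among MLL and trithorax genes 2 and 3 of 10. Most of these shares lie near those of all genes, so the counts are no result about the lists. Of the retinoid response list, 2 of 7 were higher in kidney and 1 in liver. That 1 was Cyp26a1, which degrades retinoic acid, at 33.1 ± 4.78 CPM in liver and 0.422 ± 0.196 CPM in kidney.

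Of 10 genes beside the clusters 7 were tested, with 2 higher in kidney and 1 in liver in vehicle mice and 1 and 2 in 7c mice. These shares lie near those of all genes and are no result about the neighbours. Skap2, next to the A cluster, stood at 37.7 ± 4.74 CPM in vehicle kidney and 35.7 ± 1.94 CPM in vehicle liver (log2 difference 0.08, SE 0.135, adjusted p = 0.632). Evx1, at the 5′ end of that cluster, had 0 counts in every library. Of 10 non-coding RNAs within the clusters 8 were tested, with 7 higher in kidney and 0 in liver. None passed the filter within liver, so all 8 entered the test through kidney and the count is a description. Hoxb5os stood at 6.57 ± 1.06 CPM and Hoxb3os at 4.57 ± 0.929 CPM in vehicle kidney. Of the 6 Cdx and ParaHox genes, relatives of the Hox family, 1 was tested and 0 were called.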

How the data were processed

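RNA-seq of polyadenylated RNA was analysed from 20 libraries, liver and kidney of 4 vehicle and 6 7c mice. The authors aligned reads with STAR 2.7.11b to GRCm39 and counted them per gene with featureCounts 2.0.6, and the deposited values are these raw counts. The annotation release, strand setting and handling of multiply mapped reads are not given in the sources used here. Of 57010 gene IDs, 56310 matched a GENCODE symbol. Of counts from 1 to 12, 78.9% were even, so counts are not independent molecules. Intervals and floors treat each count as independent, and may be too narrow and too low. Depth is given with the results. Groups follow the labels.

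Genes were kept if 50% or more of the libraries had 10 or more counts (of either organ for kidney against liver, of both organs for the interaction), and were fitted in edgeR 4.0.16 (R 4.3.3) with TMM factors and the quasi-likelihood F test, and p-values were adjusted by Benjamini-Hochberg over all genes tested, with a threshold of 0.05. Intervals use the degrees of freedom of the test. The comparisons were kidney against liver within each treatment, 7c against vehicle within each organ, and the interaction. The alternatives were DESeq2 1.42.0, limma 3.58.1 (voom), other scalings and filters, a replicate block and leaving out each replicate number of a treatment in turn. In fits of both organs this took out the liver and the kidney library of that number together. Scripts were tested on simulated data. Values per library are given for the 6 highest members in vehicle kidney and 4 in vehicle liver, the 3 with the smallest p for 7c in each organ, group 11, and Hoxb1, Hoxb4 and Hoxd4. Some results are not reported here. From the other gene lists at most 3 genes each were named. The members and lists were chosen with earlier results of these data known. Labels did not say whether a mouse's liver and kidney share a number.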

Additional observations from a re-analysis of the deposited data

Results flagged for a closer look

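In each group of 4 or 6 libraries the highest and the lowest value of each member described above was set against the others by Dixon's test, and 9 of 56 groups had a library that stood apart. The test flags about 1 in 20 groups by chance, but this rate does not hold for 6 of the 9, in which all other libraries held 0 counts and any count stands apart by construction. In kidney these were Hoxa9 in vehicle kidney 2, at 26.3 CPM with the others at 37.5 to 39.1, and Hoxa9 in 7c kidney 5, at 26.1 CPM with the others at 32.7 to 36.2. The third was Hoxb1 in vehicle kidney 2, at 0.940 CPM with the others at 0. In liver Hoxb5 in 7c liver 3 stood at 2.07 CPM with the others at 0.252 to 0.605. The other 5 were low values in a liver group whose other libraries held 0 counts. They were Hoxa2 at 0.364 CPM and Hoxa7 at 0.0729 CPM in vehicle liver 2, Hoxd8 at 0.242 CPM and Hoxd4 at 0.0807 CPM in 7c liver 2, and Hoxb8 at 0.0811 CPM in 7c liver 3.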

How the results depend on the processing

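Over 714 alternative values, 694 were classed as unchanged. For log2 differences of single members this meant the same direction and the same side of the threshold. For counts of members called, summed levels and their ratios it meant a value close to the main one. The number of Hox genes called between organs stayed within 26 to 29 in vehicle mice and 27 to 32 in 7c mice over the other tools, scalings and filters, and within 27 to 29 and 28 to 31 with 1 library number left out. Between 7c and vehicle it was 0 in either organ under every alternative run, and so was the interaction. Over these settings 0 to 18 of all genes were called in kidney, 0 to 7 in liver and 0 to 22 in the interaction. The 0 members lie near these shares and are no result about Hox genes. Raw library totals, a scaling chosen after seeing the data for the tests, moved the summed Hox level to 463.9 CPM in vehicle kidney, 480.0 in 7c kidney, 4.93 in vehicle liver and 4.74 in 7c liver, and the kidney to liver ratio to 94.0 and 101. With them the median of all genes shifted to 0.70 in vehicle and 0.77 in 7c mice on the log2 scale. RLE size factors gave 383 CPM in vehicle kidney. Signs turned only where no test was passed. With 1 replicate left out at a time, Hoxb4 between 7c and vehicle liver ran from -0.070 (without vehicle replicate 2) to 0.22, Hoxa5 in liver from -0.56 to 0.86 (without vehicle replicate 1), and Hoxa5 in the interaction from -0.69 (without vehicle replicate 1) to 0.65. limma-voom gave 1.21 for Hoxa5 in liver and -1.08 in the interaction. The cause of these shifts was not tested.

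With the replicate number as a block, 29 and 32 members were called between organs and 0 between treatments, and the log2 differences in liver were -0.0039 for Hoxb4, 0.12 for Hoxb5 and 0.52 for Hoxa5, with -0.10 for Hoxa5 in the interaction. Same-numbered liver and kidney deviated together with correlations of 0.0115 to 0.259, not all over 0.1, and those of 7c and vehicle ran from -0.0455 to 0.211, so the numbers were not taken as pairs. Of the 10 liver and kidney pairs 7 were over 0.1 and 8 correlated best with their own number, a hint from the data that some numbers may mark a mouse. In liver only Hoxb4 had at least 10 counts in every library.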

Other observations

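The kidneys of vehicle mouse 2 and 7c mouse 5 held 0 counts of Hoxd3, which lay at 0.488 to 0.919 CPM in the other 8. Hoxc6 lay at 7.79 and 10.4 CPM in them and at 11.1 to 13.7 CPM in the others. Hoxb7 lay at 19.2 and 21.4 CPM, above the 15.5 to 18.98 CPM of the others. Kap, an androgen-regulated gene of the proximal tubule, stood at 41666 and 48509 CPM in them and at 18819.9 to 30483 CPM in the others.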
